A study of Mus musculus with 4 samples.

Results

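The replication-dependent histone genes were followed through a single-cell RNA-seq study of embryonic mouse heart ventricles. They were chosen by symbol: 67 of the 55405 genes in the count tables carried a name of the linker histones H1f1 to H1f6 or of the clustered H2A, H2B, H3 and H4 genes. Of these, 60 had at least 50 unique molecular identifiers (UMIs, each counting 1 captured mRNA molecule) over the 4 libraries and are the members described here. The choice used the names and the total UMIs, and no group difference. The members just above the minimum were H3c10 with 97 UMIs, Hist1h2ao with 134 and H2ac5-ps with 141. The highest below it were H2ac1 with 20 and H2ac14 with 14 UMIs. The members comprise 6 H1, 17 H2A, 15 H2B, 11 H3 and 11 H4 genes, and 2 of the H2A members (Hist1h2al and H2ac5-ps) are annotated as pseudogenes.

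Ventricles were taken at E12.5 and their cells were profiled with droplet 3′ libraries, with 2 libraries per group. All embryos carried Cdh5(Pac)-CreER, a tamoxifen-inducible Cre recombinase driven by an endothelial promoter, and Rosa26mTmG/+, a reporter that switches from a red to a green membrane protein after recombination. All were exposed to tamoxifen at E9.5. The groups differed in Gata4, which encodes a cardiac zinc-finger transcription factor: Gata4_het embryos were Gata4fl/+ and Gata4_KO embryos Gata4fl/fl. Whether 1 embryo or several went into a library is not stated, so p-values measure the spread between these libraries, which may be technical.

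Replication-dependent histones package newly made DNA. Pairs of H2A with H2B and of H3 with H4 form the nucleosome core, and H1 binds the DNA where it enters and leaves that core. Their genes lie in clusters, and their mRNAs accumulate in S phase and are degraded when DNA synthesis ends. Most of these mRNAs end in a conserved stem-loop bound by SLBP rather than in a poly(A) tail. A library primed with oligo(dT) therefore reads their polyadenylated or internally primed forms, and a UMI count here does not stand for the whole histone mRNA pool.

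The stem-loop is shown first because mRNAs that end there lack the poly(A) tail that oligo(dT) primes. The hairpin searched has the arms GGNNCT and AGNNCC around the loop TTTN, with N any base. It was present in annotated transcripts of 38 of the 60 members (63.3%) and of 89 of all 55450 genes in the GENCODE M21 annotation (0.1605%). It was found for 4 of 6 H1, 9 of 17 H2A, 9 of 15 H2B, 7 of 11 H3 and 9 of 11 H4 members. The 38 transcripts held 6 different stem-loop sequences, of which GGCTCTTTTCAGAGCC was in 22. The sequences below are those of abundant members and of H4c9, whose level is described further on, printed 5′ to 3′ in the sense of the transcript with the 16-base motif in capitals.
Hist1h2ap: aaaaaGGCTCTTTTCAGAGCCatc
H2ac8: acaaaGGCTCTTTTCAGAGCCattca
H1f4: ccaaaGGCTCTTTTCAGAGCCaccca
H1f2: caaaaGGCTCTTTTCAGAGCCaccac
H3c3: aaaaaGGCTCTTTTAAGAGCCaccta
H4c4: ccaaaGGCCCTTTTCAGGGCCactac
H4c9: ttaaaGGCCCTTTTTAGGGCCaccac

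In GRCm38 all of these motifs lie on chromosome 13, in single-exon transcripts and in the annotated 3′ UTR. The Hist1h2ap motif is at chr13:21833029-21833044 on the minus strand, and its annotated transcript ends 3 bases later. The motifs of H2ac8 (chr13:23570668-23570683, minus strand), H3c3 (chr13:23745047-23745062, minus strand) and H4c9 (chr13:22040966-22040981, minus strand) are followed by 151, 74 and 330 annotated bases. The H1f4 motif (chr13:23621782-23621797, minus strand), the H1f2 motif (chr13:23739512-23739527, plus strand) and the H4c4 motif (chr13:23581950-23581965, plus strand) are followed by 1153, 840 and 770 bases. Among the 38 transcripts, 18 ran on for more than 100 bases past the motif, and in 9 of the 38 an AATAAA hexamer followed it. Members with the motif held 77.2% of all member UMIs, and those that ran on past 100 bases held 36.4%. No match was found in the annotated transcripts of H1f5, H1f1 and H2bc4, which says only that the letters are not in those models.

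Promoters were compared because the members rise together in the cell states described below. RefSeq promoters of GRCm38.p6 were matched for 52 members, and motifs were searched on both strands in the 250 bases before the start. ATTTGCAT, the octamer, was present in 5 of 14 H2A and 6 of 13 H2B promoters and in 0 of the H1, H3 and H4 promoters, against 1.81% of 27025 promoters of all genes. The H2A and H2B counts are not independent. The windows of H2ac8 and H2bc8 overlap on opposite strands, as do those of H2ac12 and H2bc12. In both pairs the octamer of the H2B gene also lies in the H2A window. AAACACA was present in 5 of 6 H1 promoters, against 7.2% of all. CCAAT was present in 44 of 52 members (84.6%), with only 3 of 10 H4 promoters among them, against 37.5% of all. TATAAA was present in 25 of 52 (48.1%), against 14.3% of all. The last 120 bases before the start of 2 H1 genes and of H2bc3 show these arrangements, with the motifs of either strand in capitals.
H1f5: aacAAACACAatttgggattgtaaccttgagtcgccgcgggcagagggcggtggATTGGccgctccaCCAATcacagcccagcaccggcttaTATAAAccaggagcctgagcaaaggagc
H1f4: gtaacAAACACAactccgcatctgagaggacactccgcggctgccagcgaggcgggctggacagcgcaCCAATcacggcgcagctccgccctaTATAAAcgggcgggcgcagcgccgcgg
H2bc3: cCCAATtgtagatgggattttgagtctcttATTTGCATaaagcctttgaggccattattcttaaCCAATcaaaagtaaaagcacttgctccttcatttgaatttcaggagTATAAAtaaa

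The H1f5 stretch is chr13:21780626-21780745 on the minus strand, the H1f4 stretch chr13:23622559-23622678 on the minus strand, and the H2bc3 stretch chr13:23746614-23746733 on the plus strand. Both H1 promoters place AAACACA upstream of CCAAT and TATAAA, whereas the H2bc3 promoter carries the octamer between 2 CCAAT boxes. A match describes the letters and is not evidence of binding.

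The libraries differed in depth and make-up. They are named here het 1, het 2, KO 1 and KO 2 and held 137890971 to 190207638 UMIs over 8597 to 23459 barcodes. After filtering, 6785 to 22474 cells remained per library, with median depths of 4165.5, 14048, 7087 and 12329 UMIs in the order just given, which every series of 4 library values keeps. Het 1 stood apart: 63.8% of its cells fell in clusters that took no name, against 8.34% to 11.3% in the other libraries. Some of these clusters were led by marker genes of the classes named below. An unnamed cluster led by Lyve1, Fcer1g, Mrc1 and C1qb held 2797 het 1 cells, and another, led by Plvap and Calcrl, held 2239. Unnamed cells are in none of the class values, and the part of this in the values of het 1 or of the other libraries was not tested. Pairs of libraries shared 14 to 93 barcodes, at most 0.683% of a library. Gata4 in endothelial-like cells was at 86.7, 80.8, 169 and 158 CPM (UMIs scaled to a total of 1000000) in het 1, het 2, KO 1 and KO 2. The labels do not say which part of Gata4 is removed and 3′ counts need not read it, so these values check nothing about the labels. EGFP, the recombined reporter, was at 1869 to 3568 CPM in endothelial-like cells and at 35.2 to 106 in cardiomyocyte-like cells.

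The 6 classes of clusters were named from marker lists. Summed own markers made up 7.67% to 8.31% of the UMIs in cardiomyocyte-like cells and at most 0.774% in any other class. They made up 0.620% to 0.812% in endothelial-like cells (at most 0.138% elsewhere), 0.412% to 0.443% in epicardial-like cells (at most 0.0316%) and 1.15% to 1.26% in macrophage-like cells (at most 0.0104%). Erythroid-like cells held 59.7% to 76.6% of UMIs in their markers, mostly globins, against 0.263% to 3.24% elsewhere, so some globin UMIs were present in every class of every library. The mesenchymal-like class was marked less cleanly, with 0.901% to 1.04% in its own cells and up to 1.41% in another class. No marker of a class was at 0 in that class in any library.

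A few genes carried most of the histone signal. The 60 members held 1926802 UMIs, which was 0.198%, 0.258%, 0.302% and 0.441% of the UMIs of het 1, het 2, KO 1 and KO 2. H2A members held 44.6% of these and H1 members 34.3%. H3 members held 10.5%, H2B members 5.28% and H4 members 5.26%. The 52 members on chromosome 13 accounted for 97.9% and the 8 on chromosome 3 for 2.13%. Hist1h2ap, an H2A gene, held 522531 UMIs (27.1%), and the first 5 genes together 73.6%. H1f5 held 298772 UMIs, H2ac8 247555, H1f4 226235 and H3c3 123127. The next were H1f2 with 67455, H4c4 with 37594, H4c8 with 36127, H1f3 with 35680, H1f1 with 32992, H2bc4 with 27995 and H3c6 with 26640. H1f6, the testis-type linker histone, had 167 UMIs. These are captured molecules, not levels per length of transcript.

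Sequence sharing limits single-gene values. In 55 of 60 members at least 1 stretch of 90 transcript bases also occurred in another gene, and in 23 more than 50% of such stretches did. For Hist1h2ap the shared part was 92.4%, mostly with Hist1h2ao, and for Hist1h2br it was 86.9%. H1f5 and H1f1 shared none. The annotated H1f4 transcript overlaps an H2B gene on the same strand, so H1f4 counts can include reads of that neighbour. Values of highly shared members, among them Hist1h2ap, H2ac18, H2ac7, H3c2 and H3c6, are therefore uncertain as single genes.

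Summed over the members, the histone level differed between classes. It is given as non-globin CPM, scaled to the UMIs that are not from globin genes, since globins fill most of an erythroid cell's counts. Epicardial-like cells were lowest at 1179, 1414, 2318 and 2168 non-globin CPM (mean 1770 ± 558, SD, n = 4). Cardiomyocyte-like cells stood at 2005, 2301, 2291 and 3499 (2524 ± 664) and endothelial-like cells at 2260, 2673, 3311 and 3311 (2889 ± 516). Mesenchymal-like cells had 3752, 4115, 3678 and 5158 (4176 ± 682) and macrophage-like cells 4498, 4070, 4335 and 7223 (5032 ± 1472). The unnamed cluster led by Lyve1, Fcer1g, Mrc1 and C1qb, with 2797, 70, 131 and 11 cells, stood at 2689, 3090, 5112 and 6302. Erythroid-like cells had the highest mean and the widest spread, at 1653, 4720, 9528 and 14784 (7671 ± 5744). Neighbours in this order overlapped in their library values, except that each mesenchymal-like value was above each endothelial-like value. That exception holds for the named clusters only. An unnamed cluster led by Fabp4, a marker of the endothelial-like class, stood at 3450, 3057, 2589 and 4245. The classes were built from clusters to which 22 members contributed, so these levels are a description and were not tested.

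**Figure D1:**
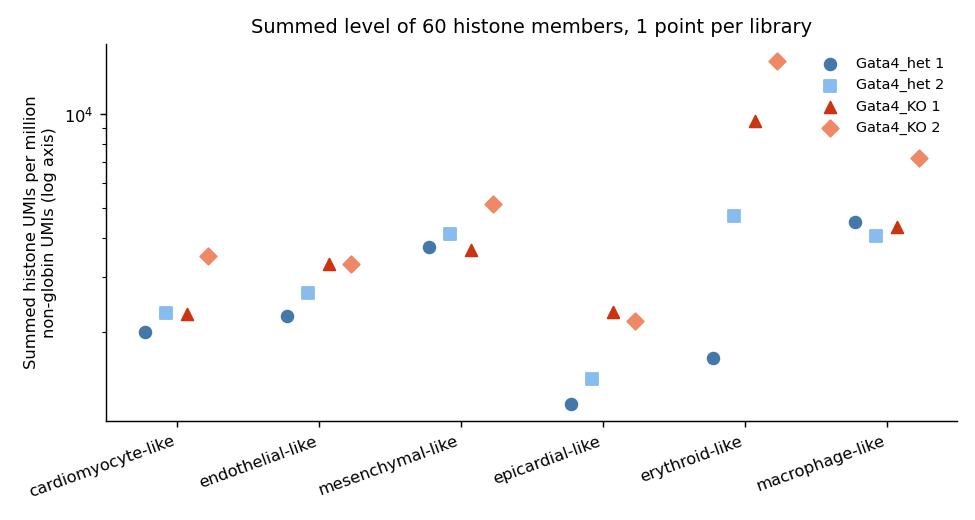
Summed level of the 60 histone members in 6 cell classes, as non-globin CPM on a log axis, with 1 point per library. Erythroid-like cells span 1653 to 14784, while the other classes lie between 1179 and 7223.

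Among the abundant members in cardiomyocyte-like cells, Hist1h2ap stood at 428, 566, 468 and 1130 non-globin CPM, so that KO 2 was well above the other libraries. H1f5 was at 278, 389, 280 and 477 and H2ac8 at 288, 311, 328 and 442. H3c3, which encodes a core H3, was at 122, 174, 172 and 336. In H2ac8 and H3c3 the KO 2 library was again highest, whereas H1f4 was highest in KO 1, at 337, 258, 406 and 338. Hist1h2ap made up 21.3%, 24.6%, 20.4% and 32.3% of member UMIs in cardiomyocyte-like cells, and KO 2 had the highest share in each of the 6 classes.

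H1f4 and H1f5 together held most of the linker histone UMIs in each class. In cardiomyocyte-like cells H1f4 took 43.7%, 32.4%, 47.1% and 33.8% in het 1, het 2, KO 1 and KO 2. H1f5 took 36.1%, 48.7%, 32.5% and 47.7%. H1f2 took 9.53% to 10.9%, H1f3 4.78% to 5.59% and H1f1 3.80% to 4.14%, while H1f6 stayed at or under 0.11% in every class and library. H1f4 was higher and H1f5 lower in replicate 1 than in replicate 2 of both groups, in all 6 classes. Replicate 1 libraries were also the shallower ones, with median depths of 4165.5 and 7087 UMIs against 14048 and 12329, and the part of depth in this pattern was not tested. H1f2 took 26.3% of H1 UMIs in the erythroid-like cells of het 1, from 1959 H1 UMIs, against 10.4% to 12.1% in the other libraries.

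**Figure D2:**
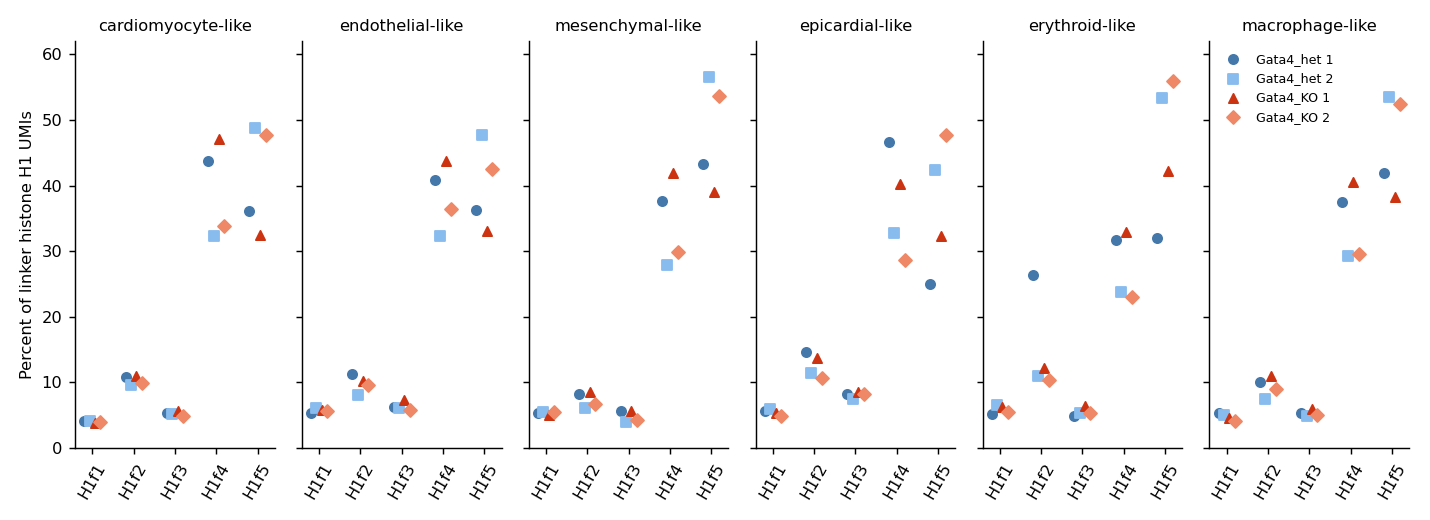
Share of linker histone UMIs taken by H1f1 to H1f5 in 6 classes, in percent, with 1 point per library. H1f4 lies higher in replicate 1 than in replicate 2 of both groups, as in cardiomyocyte-like cells (43.7% and 47.1% against 32.4% and 33.8%).

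All 53 members with at least 500 UMIs had a higher mean level in erythroid-like than in cardiomyocyte-like cells, by a median of 3.57-fold on the non-globin CPM scale. This did not hold in het 1, where 28 of the 53 were lower in erythroid-like cells, among them Hist1h2ap (294 against 428), H1f5 (169 against 278) and H2ac8 (145 against 288). In het 2, 52 of the 53 were higher, and in KO 1 and KO 2 all 53 were. The highest ratios were those of H4c14, at 6.84 ± 3.69 against 0.525 ± 0.071 non-globin CPM (SD, n = 4), a ratio of 13.03, and of H2ac6, at 18.8 ± 12.9 against 1.84 ± 0.30, a ratio of 10.2. The lowest were those of H2ac21 (ratio 1.36) and H2bc21 (ratio 1.57). The mean hides a difference inside the class. Erythroid-like cluster 15, with Hemgn and Cpox among its leading genes, had summed levels of 5447, 10290, 12468 and 18481 non-globin CPM. Cluster 1, led by the embryonic globins Hbb-bh1, Hba-x and Hbb-y, had 1294, 991, 1129 and 876. Cluster 15 held 24, 142, 739 and 309 cells and cluster 1 held 932, 1412, 1470 and 474.

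Within cardiomyocyte-like cells the histone level differed widely between clusters. Cluster 2, led by H3c3, Hist1h2an, the ribonucleotide reductase subunit Rrm2 and Hist1h2ap, had summed levels of 7359, 9398, 8051 and 12038 non-globin CPM. Cluster 16, led by the mitotic genes Ccnb1, Ube2c and Cdc20, had 474, 452, 541 and 536. Cluster 0, led by Tnnt1 and Mb, had 831, 455, 617 and 508. Histone genes helped to define cluster 2, so its level is a description only.

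The members were then set beside Pcna, the sliding clamp of DNA polymerase that is highest in S phase, and Mki67, a nuclear protein gene highest in G2 and mitosis. Every cell was thinned at random to 2000 UMIs and shallower cells were left out (305, 925, 2128 and 818 cardiomyocyte-like cells), so that detection did not follow total depth. A cell with at least 1 UMI of the gene is called positive. In cardiomyocyte-like cells 24.3%, 20.3%, 26.9% and 23.9% were Pcna-positive in het 1, het 2, KO 1 and KO 2. In endothelial-like cells 21.7%, 20.4%, 25.8% and 21.5% were, and in mesenchymal-like cells 24.2%, 17.1%, 25.6% and 22.8%. The lowest share of any class was in the erythroid-like cells of the het libraries, at 4.31% and 3.36%, with median depths before thinning of 12376 and 18955 UMIs, against 4420 to 9908 in cardiomyocyte-like cells. Globin UMIs counted towards the 2000, so fewer UMIs of other genes were left in these cells than in the other classes. The part of free RNA in the shares was not tested. Mki67-positive cells made up 21.0%, 16.7%, 15.8% and 9.91% of cardiomyocyte-like, 26.8%, 24.2%, 31.0% and 18.0% of endothelial-like and 34.0%, 26.8%, 36.1% and 29.6% of mesenchymal-like cells.

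At equal depth, Pcna-positive cells held more histone UMIs than Pcna-negative cells in all 3 classes. Of the 45 members tested in cardiomyocyte-like cells, 37 rose and 0 fell, beside 10% of all genes called in either direction, 6% called higher and 4.01% called lower (edgeR quasi-likelihood test with library as a block, adjusted p under 0.05). In endothelial-like cells 10 of 25 rose and 0 fell, beside 2.41% of genes called, 1.73% higher and 0.679% lower. In mesenchymal-like cells 16 of 34 rose and 0 fell, beside 5.14% called, 3.29% higher and 1.85% lower. The remaining 15, 35 and 26 members were too low in the thinned sums to be tested. When no gene was filtered, 36, 10 and 17 of all 60 members were called, beside 3.62%, 0.809% and 2.11% of all genes. Without KO 2, the mesenchymal-like count was 10, beside 3.45% of genes. The median log2 difference of the tested members was 1.17, 1.14 and 0.79 in the 3 classes, against -0.01 for all genes tested in cardiomyocyte-like cells.

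Hist1h2ap in thinned cardiomyocyte-like cells went from 332 to 679 CPM in het 1, from 417 to 1101 in het 2, from 330 to 923 in KO 1 and from 855 to 2226 in KO 2 between Pcna-negative and Pcna-positive cells. It was higher in the positive cells of all 4 libraries, with a log2 difference of 1.35 ± 0.039 (SE, edgeR adjusted p = 1.06e-47). H1f5 went from 209 to 437, from 367 to 1036, from 202 to 597 and from 367 to 1025 (log2 1.43 ± 0.043, edgeR adjusted p = 9.94e-47). H2ac8 rose by 1.38 ± 0.042 on the log2 scale (edgeR adjusted p = 2.41e-46). In endothelial-like cells the lowest p belonged to the same 3 genes, with Hist1h2ap up by 1.41 ± 0.067, H1f5 by 1.18 ± 0.096 and H2ac8 by 1.16 ± 0.095. In mesenchymal-like cells they rose by 1.16 ± 0.049, 1.12 ± 0.056 and 1.13 ± 0.059.

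The linker histones did not all move by the same amount. In cardiomyocyte-like cells H1f1, H1f3, H1f4 and H1f2 rose by 1.45, 1.49, 1.12 and 0.76 on the log2 scale with Pcna. In mesenchymal-like cells H1f1, H1f3 and H1f4 rose by 0.85, 0.55 and 0.64, and H1f2 had a log2 difference of 0.19 (edgeR adjusted p = 0.423). H1f2 also missed the threshold in endothelial-like cells, at 0.38 (edgeR adjusted p = 0.221). H2bc4, an H2B gene whose annotated transcript lacks the stem-loop, had log2 differences of 0.20, 0.07 and -0.11 in cardiomyocyte-like, endothelial-like and mesenchymal-like cells (edgeR adjusted p = 0.317, 0.962 and 0.855).

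Mki67 split the classes differently. Of 33 members tested in endothelial-like cells, 32 rose in Mki67-positive cells, beside 8.96% of genes called, 5.99% higher and 2.97% lower, and of 39 tested in mesenchymal-like cells 39 rose, beside 15% called, 9.15% higher and 5.82% lower. In cardiomyocyte-like cells 28 of 45 rose and 1 fell, beside 38.5% of genes called, 20.6% higher and 17.9% lower. Without a filter on low counts 33, 46 and 16 of the 60 members were called in endothelial-like, mesenchymal-like and cardiomyocyte-like cells, beside 3.80%, 5.75% and 17.2% of all genes. The median log2 difference of the tested members was 2.39 in endothelial-like, 2.34 in mesenchymal-like and 0.47 in cardiomyocyte-like cells. With normalisation by library size alone the cardiomyocyte-like median was 0.66, while the median of all genes moved from 0.068 to 0.249. DESeq2 called 13 members in cardiomyocyte-like cells, beside 2684 of 11610 genes, and without KO 1 the endothelial-like count was 21, beside 484 of 8052.

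In endothelial-like cells Hist1h2ap went from 243 to 817, from 211 to 1675, from 206 to 1471 and from 401 to 3932 CPM between Mki67-negative and Mki67-positive cells of het 1, het 2, KO 1 and KO 2 (log2 2.74 ± 0.081, edgeR adjusted p = 1.16e-91). In cardiomyocyte-like cells it went from 402 to 472, from 496 to 851, from 443 to 736 and from 1112 to 1822 (log2 0.42 ± 0.050, edgeR adjusted p = 5.51e-14). It was higher in the positive cells of each library in both classes. H1f5 and H1f4 had the lowest p in cardiomyocyte-like cells, with rises of 0.51 ± 0.053 and 0.47 ± 0.053. In mesenchymal-like cells H1f5 went from 167 to 933, from 254 to 1751, from 165 to 932 and from 249 to 1590 CPM (log2 2.67 ± 0.057, edgeR adjusted p = 2.99e-47). H2ac8 rose by 2.39 in both endothelial-like and mesenchymal-like cells.

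H2bc4 was the member that fell with Mki67 in cardiomyocyte-like cells. It went from 32.6 to 26.9, from 28.9 to 21.6, from 34.5 to 26.2 and from 40.8 to 28.7 CPM (log2 -0.55 ± 0.141, edgeR adjusted p = 0.000579). It was lower in the positive cells of all 4 libraries. In endothelial-like and mesenchymal-like cells it rose by 0.98 (edgeR adjusted p = 0.00071) and 0.47 (edgeR adjusted p = 0.0455).

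**Figure D3:**
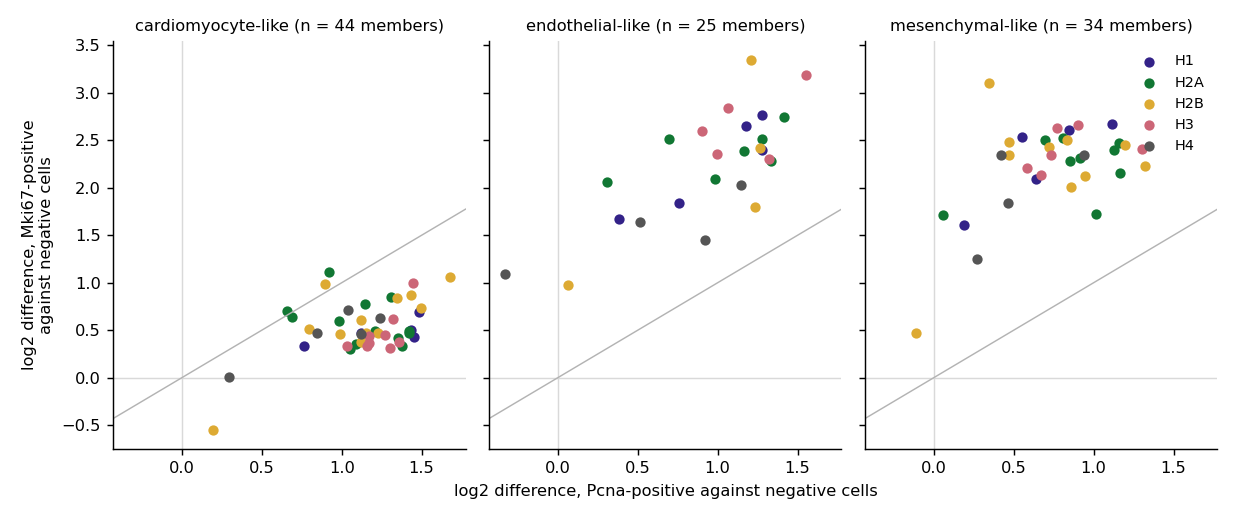
Log2 difference of each member tested between Pcna-positive and Pcna-negative cells (x axis) and between Mki67-positive and Mki67-negative cells (y axis) in 3 classes, coloured by histone. Most points lie below the diagonal in cardiomyocyte-like cells (medians 1.17 and 0.47) and above it in endothelial-like (1.14 and 2.39) and mesenchymal-like cells (0.79 and 2.34).

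Cells split by both genes show the same order. In cardiomyocyte-like cells the summed level was 1410, 1877, 1561 and 2705 CPM with neither gene in het 1, het 2, KO 1 and KO 2. It was 2874, 4925, 4119 and 6744 with Pcna only, 3817, 6074, 6067 and 8553 with both and 2097, 3108, 2671 and 4564 with Mki67 only. The ratio of Mki67-only to Pcna-only cells was 0.730, 0.631, 0.648 and 0.677, below 1 in each library. In endothelial-like cells the level with neither gene was 1200, 741, 878 and 956, and with both genes 4184, 8611, 7624 and 11340. The ratio of Mki67-only to Pcna-only cells was 1.69, 2.52, 3.42 and 3.75 there, and 1.94, 2.84, 2.84 and 2.15 in mesenchymal-like cells, above 1 in each library.

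**Figure D4:**
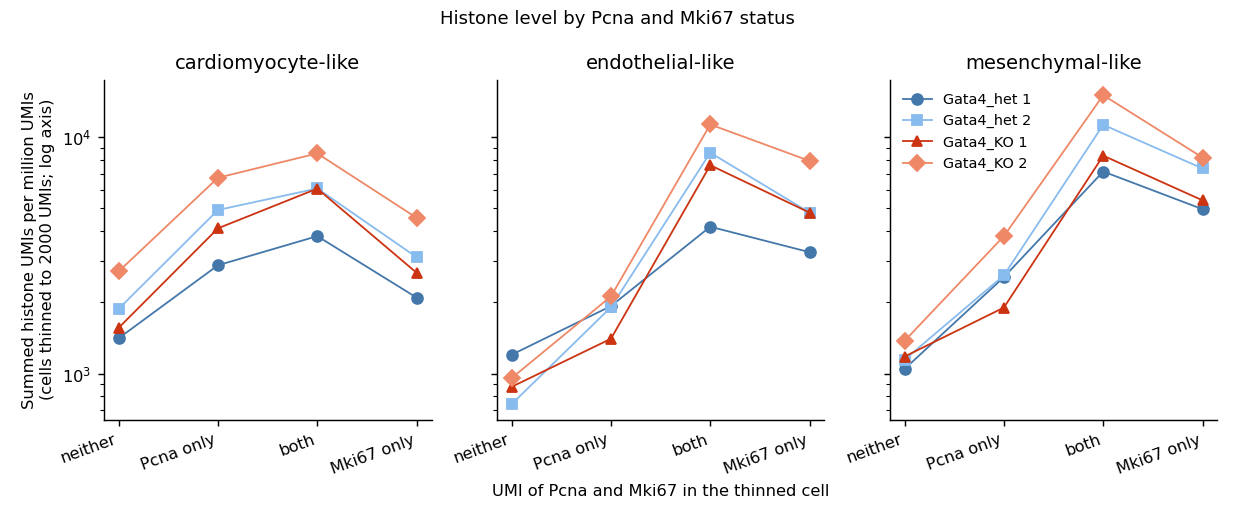
Summed histone UMIs in CPM (log axis) in thinned cells with neither gene, Pcna only, both or Mki67 only, with 1 line per library. In cardiomyocyte-like cells Pcna-only cells lie above Mki67-only cells (Mki67-only to Pcna-only ratio 0.631 to 0.730), and in endothelial-like and mesenchymal-like cells below them (1.69 to 3.75).

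The difference between classes was tested directly, with a term for class by status in 1 model over both classes. This test was added after the class values had been seen. For Mki67, 28 of 40 members had a larger difference in endothelial-like than in cardiomyocyte-like cells and 0 a smaller one, beside 19.9% of all genes called and 8.39% called higher. For mesenchymal-like against cardiomyocyte-like cells the count was 37 of 45 and 0, beside 26.3% and 11.4%. The median member difference was 1.62 and 1.76 on the log2 scale, against -0.12 for all genes in both. Hist1h2ap differed by 2.27 ± 0.118 (edgeR adjusted p = 8.72e-34) in the first test and H1f5 by 2.13 ± 0.087 (edgeR adjusted p = 2.12e-53) in the second. For Pcna, 0 of 38 members differed between endothelial-like and cardiomyocyte-like cells, beside 0.272% of genes called, 0.254% higher and 0.0181% lower, with a median of -0.17. Between mesenchymal-like and cardiomyocyte-like cells 8 of 44 had a smaller difference, beside 0.652% of genes called and 0.209% called lower. They were the 5 linker histones H1f1, H1f2, H1f3, H1f4 and H1f5, and H3c3, H4c4 and H2ac18. H1f4 differed by -0.48 ± 0.076 (edgeR adjusted p = 1.84e-06) and H1f3 by -0.94 ± 0.162 (edgeR adjusted p = 2.86e-05). Without KO 1 the 8 became 1, and without het 2 they became 3.

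Other genes of the pathway were read from fixed lists in the same fits. Of 39 S-phase genes tested in cardiomyocyte-like cells, 39 rose with Pcna, and of 40 G2/M genes 11 rose and 5 fell. With Mki67, 8 of 40 S-phase genes rose and 4 fell, and 39 of 39 G2/M genes rose. In mesenchymal-like cells 27 of 40 S-phase genes rose and 1 fell with Mki67, and in endothelial-like cells 27 of 39 rose and 0 fell. Over all genes in cardiomyocyte-like cells, 6% were called higher and 4.01% lower with Pcna, and 20.6% and 17.9% with Mki67. The S-phase count with Mki67 in these cells was thus near the share over all genes. Among single genes in cardiomyocyte-like cells, Nasp, a histone chaperone, rose by 0.65 with Pcna, Dut, which removes dUTP, by 0.80, and Top2a, a topoisomerase, by 0.47. With Mki67, Top2a rose by 1.08 and Hmgb2 by 0.43, Nasp rose by 0.14 and Dut had a difference of -0.14 (edgeR adjusted p = 0.0616).

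Replication-independent histones, most of which are made throughout the cell cycle, were read in the same way. The lists overlap: Cenpa is in this list and in the G2/M list. Slbp, of the 3′ processing list, and Nasp, of the chaperone list, are also in the S-phase list. With Pcna, 5 of 11 rose and 1 fell in cardiomyocyte-like cells, and H2az1 rose by 0.35, H3f3b by 0.26 and H3f3a by 0.11 on the log2 scale. With Mki67 in cardiomyocyte-like cells 3 rose and 2 fell: H2az1 rose by 0.11, H3f3a fell by 0.50, and H3f3b had a difference of 0.03 (edgeR adjusted p = 0.635). In mesenchymal-like cells 8 of 11 rose and 1 fell with Mki67, with H2az1 up by 0.90. Of 21 genes for histone mRNA transcription and 3′ processing, 9 rose with Pcna in cardiomyocyte-like cells. Slbp, which encodes the stem-loop binding protein, rose by 0.59 there and by 0.53 in mesenchymal-like cells, Casp8ap2 rose by 0.44 and 0.50, and Srrt had differences of -0.00 and 0.26 (edgeR adjusted p = 0.994 and 0.181). Of 19 histone chaperone genes, 14 rose with Pcna and, with Mki67, 2 rose and 5 fell. Npm1, Set and Nap1l1 rose by 0.12, 0.17 and 0.30 with Pcna and fell by 0.44, 0.14 and 0.23 with Mki67 in cardiomyocyte-like cells. Beside the 20.6% higher and 17.9% lower over all genes, the Mki67 counts of the replication-independent and chaperone lists in these cells are no result about the lists.

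Deletion of Gata4 in endothelial cells was the comparison the libraries were made for. In none of the 6 classes did a member pass the threshold (edgeR quasi-likelihood test on UMI sums per library, adjusted p under 0.05), and 0% of all genes did. The members tested numbered 55 in cardiomyocyte-like, 52 in endothelial-like, 56 in mesenchymal-like, 45 in epicardial-like, 56 in erythroid-like and 51 in macrophage-like cells. At an unadjusted p under 0.05 the counts were 11, 6, 4, 22, 42 and 4 members, beside 1.74%, 4.12%, 0.961%, 1.65%, 16.9% and 1.87% of all genes. DESeq2 called 1 member in epicardial-like cells, beside 3 of 13914 genes, 26 in erythroid-like cells, beside 426 of 12481, and 0 in the other classes, and limma-voom called 0 in all 6. With no filter on low counts edgeR called 5, 3, 0, 5, 42 and 1 of the 60 members, beside 0.347%, 1.16%, 0.109%, 0.0821%, 3.69% and 0.432% of all genes.

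The KO libraries were above the het libraries for more tested members than they were below, in each class and without any passing. The difference was above 0 for 50 of 55, 43 of 52, 34 of 56, 44 of 45, 55 of 56 and 45 of 51 tested members in the order of classes just given, beside 49.3% to 51.4% of all genes. The median log2 difference was 0.35, 0.27, 0.05, 0.72, 1.45 and 0.31, while the median of all genes lay between -0.0038 and 0.02. With het 1 left out, the medians were 0.33, 0.31, 0.11, 0.68, 1.07 and 0.53. Without KO 1 the endothelial-like median was 0.0013 and the mesenchymal-like median -0.0071. Without KO 2 the cardiomyocyte-like median was 0.21, and without het 2 the macrophage-like median was 0.14. With het 2 left out, the erythroid-like median was 2.33 and the epicardial-like median 0.80. The summed level in CPM had a log2 ratio of KO to het of 0.44 in cardiomyocyte-like, 0.44 in endothelial-like, 0.17 in mesenchymal-like, 0.79 in epicardial-like, 2.54 in erythroid-like and 0.44 in macrophage-like cells. On the non-globin scale the erythroid-like ratio was 1.93, and globins took a larger share of erythroid-like UMIs in the het libraries. The groups did not overlap in endothelial-like, epicardial-like and erythroid-like cells, and 2 libraries against 2 cannot give an exact permutation p below 0.33. The endothelial-like class leaves out an unnamed cluster led by Fabp4 and Tcf15, with 201, 331, 299 and 233 cells. Its summed level overlapped between the groups, at 3450, 3057, 2589 and 4245 non-globin CPM. An unnamed cluster led by Wnt4 and Aqp1 overlapped too, with 727, 409, 260 and 115 cells at 2589, 3392, 2614 and 4205. Without Hist1h2ap the endothelial-like ratio was 0.29, and without KO 2 the cardiomyocyte-like ratio was 0.08 and the mesenchymal-like ratio -0.10.

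**Figure D5:**
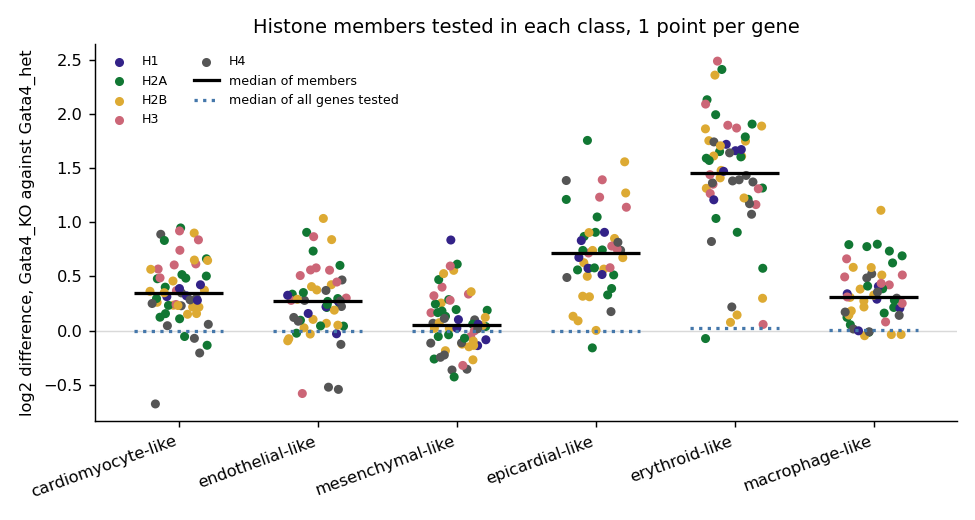
Log2 difference between Gata4_KO and Gata4_het for each member tested in 6 classes, coloured by histone, with the median of the members (black line) and of all genes tested (dotted line). Member medians run from 0.05 in mesenchymal-like to 1.45 in erythroid-like cells, and no member passed the adjusted threshold.

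In endothelial-like cells, where the Cre is active, the member of lowest p was H3c2. It had 14.9, 13.3, 29.3 and 23.2 CPM, so the groups did not overlap (log2 0.87 ± 0.165, edgeR adjusted p = 0.518). Because H3c2 was picked by its p, this separation is not separate evidence. The share of all genes that separate in this way is not given here. Hist1h2br, an H2B gene, followed with 9.39, 7.08, 21.0 and 13.2 (log2 1.03 ± 0.251, adjusted p = 0.768). The abundant members gave less separation: H1f5 was at 287, 399, 373 and 318 CPM (log2 -0.03 ± 0.214) and Hist1h2ap at 521, 828, 858 and 1423 (log2 0.73 ± 0.352). Both shares of cycling cells overlapped between the groups. The Pcna-positive share was 2.57 percentage points higher in KO (exact permutation test, p = 0.667) and the Mki67-positive share differed by -1.01 points (exact permutation test, p = 1).

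In cardiomyocyte-like cells Hist1h2br had 8.13, 5.11, 10.9 and 11.98 CPM (log2 0.90 ± 0.252, adjusted p = 0.999 with edgeR) and H2bc3 10.6, 8.43, 14.0 and 13.8 (log2 0.65 ± 0.183). Neither gene overlapped between the groups, but both were picked for the lowest p here, so the separation is not separate evidence. Different clusters made up this class in het 1: clusters 9 and 12 held 78.7% of its cardiomyocyte-like cells, against 2.39% to 2.81% in the other libraries. Clusters 0, 2 and 5 held 10.7% in het 1 against 61.9% to 78.9%, and the part of this make-up in the KO to het values was not tested. Pcna-positive cells were 3.11 points more frequent in KO (exact permutation test, p = 0.667) with overlapping groups. Mki67-positive cells differed by -6.01 points (exact permutation test, p = 0.33, the smallest possible) without overlap. In mesenchymal-like cells H3c2 was at 33.3, 25.9, 41.4 and 47.1 CPM (log2 0.60 ± 0.170) and H2ac7 at 21.5, 12.1, 24.9 and 25.2 (log2 0.61 ± 0.238).

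Epicardial-like cells were few, with 80, 195, 327 and 145 cells. An unnamed cluster led by Upk3b, Krt7 and Rspo1 held a further 1012, 23, 25 and 12 cells outside the class. Its summed level in het 1 was 1634 non-globin CPM, against 1179 in the class. Within the class H3c3 stood at 48.1, 42.8, 111 and 100 CPM (log2 1.23 ± 0.179, edgeR adjusted p = 0.568) and H3c2 at 8.37, 7.97, 22.6 and 20.4 (log2 1.39 ± 0.239). Both genes were higher in each KO library than in each het library, but they were picked for the lowest p in this class. All 40 G2/M genes also lay above 0 in this class (median 0.43), as did 27 of 40 S-phase genes, and Mki67-positive cells made up a mean of 12.4% in het and 20.04% in KO libraries, without overlap. Pcna-positive cells made up 10%, 13.3%, 11.4% and 13.8% and overlapped between the groups.

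The widest KO to het difference was in erythroid-like cells. Whether the Cre had acted in the cells of this class was not tested. Hist1h2br had 1.40, 2.70, 20.9 and 18.9 CPM (log2 2.36 ± 0.330, edgeR adjusted p = 0.225). H2ac7 had 1.40, 3.71, 24.0 and 27.5 (log2 2.41 ± 0.412, edgeR adjusted p = 0.225). The S-phase list lay above 0 for 40 of 40 genes (median 1.04) and the G2/M list for 40 of 40 (median 0.89), whereas 5 of 11 replication-independent histones did (median -0.27). Pcna-positive cells made up 4.31%, 3.36%, 12% and 14.1%, Mki67-positive cells 11.8%, 13.1%, 31.2% and 35.1%, and globin UMIs 76.5%, 73.8%, 63.7% and 59.5%. Globin UMIs counted in the thinning, so het cells kept on average fewer UMIs of other genes than KO cells. The part of this in the shares was not tested. On the non-globin scale Pcna stood at 71.6, 145, 303 and 328 CPM and Mki67 at 533, 793, 1967 and 1923. Cluster 15, in which the histone level was high, held 24 and 142 cells in the het libraries and 739 and 309 in the KO libraries. The part of this make-up in the class difference was not tested. With library size alone in place of TMM factors the median of all genes was 0.92 and that of the members 2.32.

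In macrophage-like cells H2ac6 had 15.4, 13.9, 24.4 and 26.2 CPM (log2 0.80 ± 0.189) and H2ac18 42.4, 25.6, 50.5 and 57.4 (log2 0.69 ± 0.229), with edgeR adjusted p = 0.9996 for both. Pcna-positive macrophage-like cells made up 30.5%, 31.3%, 38.8% and 45.3% and Mki67-positive cells 43.6%, 42.3%, 50.5% and 55.8%, the highest shares of the 6 classes. The unnamed cluster led by Lyve1 and Fcer1g, with 2797 het 1 cells, is not in these shares.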

How the data were processed

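UMI counts per gene and cell were deposited by the authors as filtered matrices made with Cell Ranger 6.0.1, per the file headers. The submitters' processing notes also name Seurat and mm10, and the annotation used for counting is not given in the sources used here. The labels name 2 different 10x protocols (Next GEM and an earlier chemistry) in the text of every sample, so that of each library could not be settled and its part in any result was not tested. Counts were used as deposited, and groups came from the labels. Transcripts and coordinates came from GENCODE M21 (GRCm38) and promoters from RefSeq, which may not be the authors' annotation.

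Cells with at least 500 genes and less than 20% mitochondrial UMIs were kept. Doublets were called with Scrublet, which set no usable threshold for het 1 and KO 2, so that the median of the other libraries, 0.3232, served there. Removed doublets numbered 412, 242, 608 and 93. Cells were clustered with scanpy 1.11.5 on 2000 variable genes and named from fixed marker lists. The limits for naming were adjusted after the clusters had been seen: a mean log2 enrichment of markers of at least 0.5 for cardiomyocyte-like and 1 for other classes, at least 3 markers, and cardiomyocyte markers at or above 5% or below 1% of UMIs.

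Sums of counts per library and class were tested with edgeR 4.0.16 (TMM, filterByExpr, quasi-likelihood, Benjamini-Hochberg over all genes, threshold 0.05) in R 4.3.3, with DESeq2 1.42.0 and limma 3.58.1 as alternatives. Status comparisons used cells thinned to 2000 UMIs, with library as a block and the status gene left out.

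Members, gene lists and tests were chosen with earlier results of these data known. Genes named are the 12 members with most UMIs, all H1 members, up to 3 called members of lowest p per direction and comparison (2 where none was called), the extremes of the erythroid to cardiomyocyte ratio, and up to 3 genes of most UMIs per list. H4c9, and the members that differed between classes, were named after their values were seen.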

Additional observations from a re-analysis of the deposited data

Results flagged for a closer look

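The effect of Mki67 status on the members differed between classes by a direct test, which was chosen after seeing the data. It was larger in endothelial-like than in cardiomyocyte-like cells for 28 of 40 members, beside 2155 of 10813 genes called in either direction. It was larger in mesenchymal-like than in cardiomyocyte-like cells for 37 of 45, beside 3012 of 11469. Leaving out 1 library gave 23 to 30 and 31 to 36 members. The effect of Pcna status was smaller in mesenchymal-like than in cardiomyocyte-like cells for 8 of 44 members, beside 78 of 11967 genes called, and leaving out 1 library gave 1 to 9.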

How the results depend on the processing

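No member passed for KO against het. With the replicate number as a block, 9, 5, 3, 16 and 47 members passed in cardiomyocyte-like, endothelial-like, mesenchymal-like, epicardial-like and erythroid-like cells and 0 in macrophage-like cells. All genes called there numbered 246 of 16573, 287 of 15060, 68 of 16852, 74 of 13914 and 3172 of 12481 in the first 5. Same-numbered libraries deviated together (correlation 0.45 to 0.60 in the 6 classes), but only 2 pairs exist and the labels give the number no meaning, so it was not used as pairing. Without a filter on low counts 5, 3, 5, 42 and 1 passed in cardiomyocyte-like, endothelial-like, epicardial-like, erythroid-like and macrophage-like cells. All genes called there numbered 99 of 28526, 307 of 26446, 20 of 24354, 901 of 24388 and 96 of 22217. DESeq2 gave 1 in epicardial-like cells (3 of 13914 genes) and 26 in erythroid-like cells (426 of 12481), and library size alone gave 48 in erythroid-like cells (4779 of 12481). Leaving out 1 library gave 0 to 2, 0 to 1, 0 to 1, 1 to 6, 0 to 43 and 0 to 4 in the 6 classes in the order of the report. The 43 came without het 2, and without het 1 the count was 15, beside 3385 of 13291 and 234 of 13447 genes.

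For Pcna status, thinning to 4000 UMIs gave 22 members in endothelial-like and 36 in mesenchymal-like cells, no thinning 37 and 48, and DESeq2 gave 8 in mesenchymal-like cells. Genes called in these fits numbered 574 of 10055 and 1652 of 11634, 2167 of 13297 and 5072 of 15121, and 106 of 9732. Leaving out 1 library gave 32 to 37, 9 to 10 and 10 to 15 in cardiomyocyte-like, endothelial-like and mesenchymal-like cells, the 10 without KO 2. These stood beside 5.28% to 9.29%, 1.02% to 2.36% and 2.70% to 3.45% of all genes. For Mki67 status in cardiomyocyte-like cells no thinning gave 47 (9397 of 15589 genes), DESeq2 13 (2684 of 11610) and no filter 16 (3978 of 23111), and in endothelial-like cells no thinning gave 52 (5108 of 13722). Leaving out 1 library gave 20 to 24, 21 to 30 and 36 to 40, the 21 without KO 1. All genes called there made up 29.8% to 35.3%, 5.25% to 8.41% and 9.30% to 14.5%. The class difference in the Pcna effect fell to 3 members without het 2 and to 1 without KO 1.

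Without thinning, the KO minus het difference in the Pcna-positive share of cardiomyocyte-like cells was -0.92 points. Leaving out 1 library gave 1.08 to 5.13, 0.39 to 4.75 and 0.087 to 7.17 points for Pcna in the 3 classes. For Mki67 it gave -8.97 to -3.05 in cardiomyocyte-like, -7.51 to 5.48 in endothelial-like (0.28 without het 1, 5.48 without KO 2) and -1.10 to 6.06 in mesenchymal-like cells (-1.10 without het 2, -0.76 without KO 1). The summed level had log2 ratios of 0.081 to 0.72, 0.31 to 0.58 and -0.10 to 0.40 there, the lowest cardiomyocyte-like and mesenchymal-like values without KO 2, and of 1.93 to 3.60 in erythroid-like cells. Without Hist1h2ap the endothelial-like ratio was 0.29. Except where the construction of an alternative changes the genes or samples tested, the cause was not tested. Over 291 alternative values for single named members, 257 kept their side of the threshold, 34 newly passed it and 0 changed direction.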

Other observations

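One H4 gene, H4c9, had a level unlike that of the other H4 genes in a small group of cells. When cells were clustered without histone and cell-cycle genes, an unnamed cluster of 261, 50, 165 and 21 cells in het 1, het 2, KO 1 and KO 2 was led by Ppbp, Pf4, Gp9 and Treml1, which are known from megakaryocytes and platelets. H4c9 stood at 900, 2252, 1127 and 1807 non-globin CPM there and took 70.6%, 62.2%, 68.4% and 61.5% of the H4 UMIs. In the macrophage-like cluster it stood at 34.7, 25.9, 30.3 and 35.6 non-globin CPM and took 14.8%, 13.1%, 14.5% and 14.5%. In the clustering that included histone genes, H4c9 also led a different unnamed cluster, with Gp5, Clec1b and Lyve1, of 263, 1, 5 and 0 cells, almost all from het 1. The gene was singled out after its values were seen, and the difference was not tested. Its annotated stem-loop transcript runs on for 330 bases past the motif.

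Polyadenylated or internally primed histone transcripts are what these libraries hold, and many members share transcript sequence. Class names come from rebuilt clusters, and 14340 cells of het 1 belong to none. With 2 libraries per group, no exact permutation test of a single value can pass 0.05. A different share of cycling cells and a different amount of histone mRNA per cycling cell cannot be told apart in the class sums.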
